A study of Rattus norvegicus with 2 samples.

Results

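Map1b, Mapt and Map2 encode the microtubule-associated proteins MAP1B, Tau and MAP2. These 3 of the 9894 genes listed in a rat tag-sequencing study of PIWIL1 knockdown were followed along their transcripts, from CATG site to CATG site. They were chosen by their measured counts, each lower in the RNAi library, so the differences below are given as descriptions and no test of them was made. Map1b was listed under NM_019217, Mapt under NM_017212 and Map2 under NM_013066. All tags listed under these identifiers were taken, and their copies were summed for each site. Together they carried 93 different tags, 48 for Map1b, 39 for Mapt and 6 for Map2.

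The samples were 2 libraries, 1 for each condition. Cells of the cortex of Sprague-Dawley rats at embryonic day 16 (E16) were dissociated, electroporated with a plasmid and kept for 48 h in Neurobasal medium with serum and B27. The Scramble library came from cells given the control plasmid and the RNAi library from cells given a plasmid for a PIWIL1 short interfering RNA. The plasmids were pSuper vectors. Several PIWIL1 sequences were cloned in the study, and which of them was sequenced here is not named. The labels do not mention sorting, so that cells without plasmid may be part of each library, and the number of animals behind a library is not given. PIWIL1 had no listed tag, so that the knockdown could not be checked here. A single library stood for each condition, without a replicate check. All intervals are exact 95% intervals that cover counting error only and leave out variation between cultures. They are Clopper-Pearson intervals, or the conditional interval of an odds ratio for a difference between site 1 and the rest. Amplified copies are not independent molecules, so the intervals may be too narrow even for counting error.

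Microtubules are polymers of tubulin that support neurites and carry transport, and microtubule-associated proteins bind along them, stabilize them and link them to other structures. MAP1B is the main such protein of the growing axon in the embryo and is made as a precursor that is cut into a heavy and a light chain. Tau, the product of Mapt, binds axonal microtubules through repeated domains and is known for its aggregates in dementia. MAP2 resembles Tau in its microtubule-binding repeats and is the classical marker of dendrites and cell bodies.

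The tags that carry the pattern are shown next. Each is 21 bases long and is written 5′ to 3′. The capitals mark the CATG with which every tag begins and the last 2 bases, with which tag ratios in these libraries varied. Sites are numbered from the 3′ end of the transcript, with site 1 nearest to it. The first set holds the leading (most copied) tags of the Map1b sites with the most copies and of sites 2 and 8, which had the highest and the lowest ratio among sites with at least 20 copies, and a tag that differs from that of site 1 by the substitution T20G, with positions counted from 1 at the C of CATG.
Map1b site 1: CATGcgcccgcaggcagcgTG
Map1b site 1, T20G: CATGcgcccgcaggcagcgGG
Map1b site 2: CATGgaattcaaaagaaaaAA
Map1b site 3: CATGctttcccagtcttgtGA
Map1b site 4: CATGcatgctttcccagtcTT
Map1b site 5: CATGacccttttggtagtaTT
Map1b site 8: CATGcagtctacttaatgcTG
Map1b site 12: CATGtagagagttcagacaCA

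For Mapt, the tags of the most copied sites and of the sites with the lowest ratios (7 and 26) are shown.
Mapt site 1: CATGaatcatcttagcttaGC
Mapt site 7: CATGttaagataattgacaTG
Mapt site 14: CATGcacgtaatcagccctTC
Mapt site 15: CATGttgaactggaggcagCC
Mapt site 21: CATGgagagaagagagagtGA
Mapt site 26: CATGtgactcaagctcgagTG

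All 6 tags of Map2 are shown because each had few copies and the gene's value rests on all of them.
Map2 site 2: CATGcaaaggcccgcgtcgAC
Map2 site 4: CATGtgacttccaaatgtgGC
Map2 site 5: CATGatgaagagcttgaagTA
Map2 site 6: CATGgagtccctgaagcctGA
Map2 site 9: CATGccaaggagtcagaagAG
Map2 site 10: CATGttgattcaaaagaacAT

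The tags of sites 3 and 4 of Map1b start 4 bases apart and share 17 bases, so that these sites are counted from nearly the same stretch of the transcript. Whether a site lies in the coding part or in an untranslated region was not analysed here, because transcript sequences were not used.

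In libraries of this kind, cDNA held at its poly(A) end is cut at CATG, and a tag is read from the cut. A fully cut transcript leaves the tag of site 1. The study's own protocol for this step is not given in the sources used here. Each gene was nevertheless read from many sites. The libraries held 1947600 (Scramble) and 1865913 (PIWIL1 RNAi) copies of tags on genes. No tag had fewer than 2 copies, each tag stood under a single gene, and 3 copies equal 0.886 and 0.908 TPM (the copies scaled to the clean tags of the library with no account of gene length). Among the 8899 genes listed in both libraries the median log2 ratio of PIWIL1 RNAi to Scramble was -0.085. At an FDR of 0.05 or less (Fisher's exact test, a comparison of these libraries rather than of the conditions) and a log2 ratio of 0.58 or more in size, 5.97% of the genes were lower and 2.96% higher. With TMM factors in place of the total of clean tags the split changed from 591 lower and 293 higher genes to 459 and 398. All 3 genes passed as lower, which the choice of the genes fixed. With a coefficient of variation of 0.1 between cultures assumed in edgeR's exact test, Map1b alone of the 3 passed, and with 0.2 none did.

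The neuronal identity of the cultures was checked with markers. All 8 neuronal markers were listed, and their summed level was 4212 TPM (Scramble) and 3759 TPM (RNAi), with a median log2 ratio of -0.43. Most of the sum came from Stmn2 (7484 and 5678 copies, -0.36) and Gap43 (2670 and 3541 copies, 0.44), and with the correction for tag ends given further on these ratios became -0.21 and -0.33. Of these markers Snap25, a synaptic membrane fusion protein, was called lower (918 and 545 copies, log2 ratio -0.72, FDR 1.74e-17 by Fisher's exact test). The summed level of radial glia and progenitor markers (7 of 8 listed, Eomes not listed) was 1025 and 1311 TPM. In this list Vim, an intermediate filament gene, had 2674 and 3724 copies and a log2 ratio of 0.51, the other 6 listed genes were at lower levels in the RNAi library, none of them called, and the median was -0.29. The summed level of astrocyte markers (4 of 6, without Aqp4 and Slc1a2) was 88.6 and 80.5 TPM, and that of oligodendrocyte markers (5 of 5) 6.79 and 5.75 TPM. Markers of microglia (4 of 5, Itgam not listed) summed to 836 and 2210 TPM, nearly all of it from the lysosomal gene Cd68 with 2777 and 7238 copies, whose log2 ratio of 1.42 became -0.19 with the same correction. Fibroblast markers (5 of 5) summed to 546 and 523 TPM, and of the endothelial and pericyte markers only Pdgfrb was listed, with 10 and 3 copies. In RNA from whole cultures, fewer neurons and less RNA per neuron cannot be told apart, and the part of cell makeup in the values below was not tested.

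Map1b, the axonal growth protein, had 3392 Scramble and 1758 RNAi copies. These counts correspond to 1002 and 532 TPM and a log2 ratio of -0.91 (-0.996 to -0.83). The copies came from 38 sites, the most distant being site 43, and 5 ranks below it had no tag. Of the sites, 30 were listed in both libraries, 7 in the Scramble library only and 1 in the RNAi library only. The 18 sites with at least 20 copies over both libraries held 96.4% of the Scramble copies. All 18 had a lower level in the RNAi library, against 55.7% of the 15813 sites of all genes with as many copies. The log2 ratio was -0.58 or less at 17 of them, against 21% of all sites, and the interval lay below 0 at 15 of them, against 14.9% of all sites. These sites share the comparison by which the gene was chosen and are not replicates, so nothing is read from the counts.

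**Figure D1:**
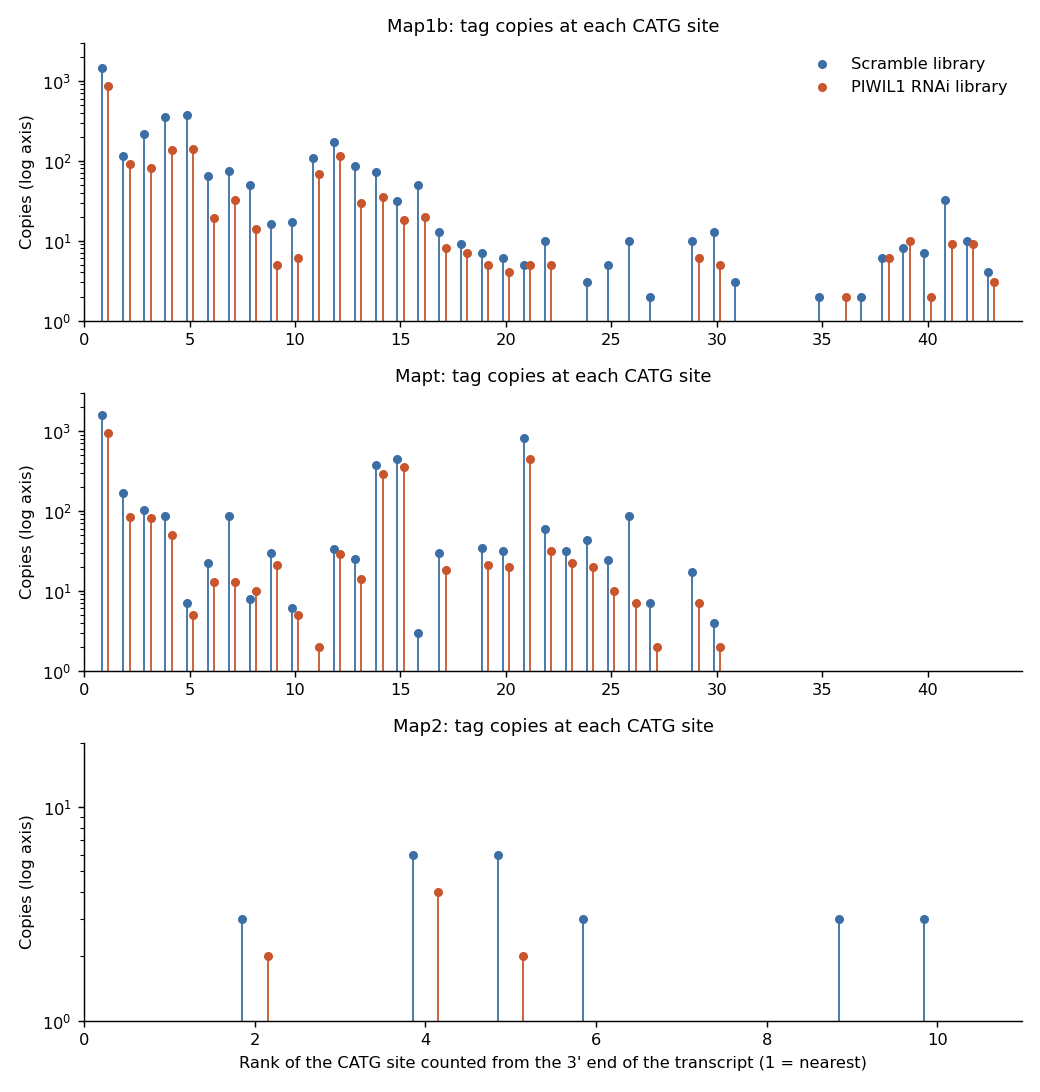
Copies of the tags at each CATG site of Map1b, Mapt and Map2 in the Scramble and the RNAi library, on a log axis, against the rank of the site counted from the 3′ end. Sites with no copies in a library have no marker. Map1b and Mapt were read from 38 and 28 sites with a few dominant ones, and Map2 from 6 sites with at most 6 copies each.

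The sites of Map1b did not share a single ratio. Site 1, whose leading tag ends in TG, had 1426 Scramble and 862 RNAi copies. Its log2 ratio was -0.69 (-0.81 to -0.57). All other sites together had 1966 and 896 copies and a log2 ratio of -1.10 (-1.21 to -0.98). The ratio at site 1 was thus nearer to 0 by 0.41 (0.24 to 0.58). Among the 654 genes in which the same difference could be formed, its median was 0.11 with quartiles of -0.27 and 0.42, and 174 genes had a difference at least as large.

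The sites next to site 1 of Map1b had lower ratios as a group. Sites 2 to 10 together had 1276 Scramble and 526 RNAi copies, a log2 ratio of -1.24 (-1.39 to -1.09). Within this group site 3 had 215 and 81 copies, site 4 had 350 and 138, and site 5 had 372 and 140. Their log2 ratios of -1.37, -1.31 and -1.37 differed from each other by less than the width of their intervals. Site 6 (65 and 19 copies, -1.74) and site 8 (50 and 14 copies, -1.80) were lower still, with intervals of -2.56 to -0.98 and -2.77 to -0.92 that overlap those of sites 3 to 5. Site 2, between site 1 and these, had 116 and 91 copies and a log2 ratio of -0.31 (-0.73 to 0.094). A difference was thus not detectable there at this depth in the counts as deposited. The leading tag of site 2 is the only one among those of sites 2 to 10 to end in a run of A. With the correction for tag ends given further on, its log2 ratio became -0.78. Those of sites 3, 4 and 5 became -1.34, -1.17 and -1.24.

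Further from the 3′ end of Map1b the values in the counts as deposited were mixed. Sites 11 and 12 had 109 and 174 Scramble copies and 68 and 113 RNAi copies, with log2 ratios of -0.64 and -0.59. The next site, 13, had 86 and 30 copies and a log2 ratio of -1.48 (-2.13 to -0.87), and site 14 had 73 and 35 copies and a log2 ratio of -1.02. With the correction for tag ends given further on, sites 11, 12, 13 and 14 had closer log2 ratios, of -0.88, -0.84, -0.95 and -0.89. In sum, sites 11 to 20 had 558 and 308 copies and a log2 ratio of -0.82 (-1.03 to -0.62). Beyond site 20 few copies were left, 58 and 21 at sites 21 to 30 (-1.43, -2.22 to -0.69) and 74 and 41 from site 31 on (-0.82, -1.40 to -0.25). The most distant site with at least 20 copies, site 41, had 32 and 9 copies and a log2 ratio of -1.79 (-3.05 to -0.69). Of the 30 sites listed in both libraries, 27 were lower and 3 higher. The 3 were sites 21 (5 and 5 copies), 38 (6 and 6) and 39 (8 and 10), and their direction is within counting error. The largest number of copies at a site listed in the Scramble library only was 10, at site 26.

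Set against the whole gene's log2 ratio of -0.91, 2 of the 18 sites of Map1b lay above it (sites 1 and 2). A further 5 lay below it (sites 3, 4, 5, 6 and 8). In each case the site's own interval did not include -0.91, a value to which the site's copies contribute. The variance of site counts around a shared ratio was 4.12 times that of counting error alone (chi-square per degree of freedom). Over 694 genes with at least 5 sites of 20 copies, the median of this measure was 2.47 (quartiles 1.38 and 4.77). A value at least as large was found in 213 of these genes, but the measure grows with the number of copies. The standard deviation of the site ratios of Map1b was 0.464, against a median of 0.535 over the same genes. By that measure 427 of the 694 genes were at least as spread as Map1b. Map1b and Mapt had more such sites than any other gene, 18 and 21 against a median of 6. Leaving out 1 site at a time, the log2 ratio of Map1b ran from -1.10 without site 1 to -0.86 without site 5.

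Mapt, the gene of Tau, had 4138 Scramble and 2514 RNAi copies, or 1222 and 761 TPM. Its log2 ratio was -0.68 (-0.76 to -0.61). The copies came from 28 sites up to site 30, of which 26 were listed in both libraries and 1 in each library alone. The 21 sites with at least 20 copies held 99.2% of the Scramble copies, and the level was lower in the RNAi library at all 21. The log2 ratio was -0.58 or less at 15 sites and the interval lay below 0 at 11. Over the sites of all genes these shares were 55.7%, 21% and 14.9%, as given for Map1b. Every such site was lower in 50 of the 694 genes with at least 5 of them (7.2%), Map1b and Mapt included. Here too the sites share the comparison by which the gene was chosen, so nothing is read from the counts. Among the sites with fewer copies, site 8 (8 and 10 copies) was the only one listed in both libraries and higher in the RNAi library.

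In Mapt, site 1 and the other sites had nearly the same ratio in the counts as deposited, though not after the correction for tag ends given further on. Site 1 had 1573 and 942 copies and a log2 ratio of -0.70 (-0.82 to -0.59), and the rest had 2565 and 1572 copies and a log2 ratio of -0.67 (-0.76 to -0.58). The difference was -0.03, with an interval of -0.18 to 0.12. Site 21, the second most copied, had 804 and 446 copies and a log2 ratio of -0.81 (-0.98 to -0.65).

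Sites 14 and 15 of Mapt formed a stretch of smaller differences. Site 14 had 378 and 287 copies and a log2 ratio of -0.36 (-0.59 to -0.14). Site 15 had 443 and 352 copies and a log2 ratio of -0.30 (-0.50 to -0.091). Both intervals leave out the gene's value of -0.68. Sites 11 to 20 together, most of whose copies are those of sites 14 and 15, had 977 and 743 copies and a log2 ratio of -0.36 (-0.50 to -0.22). On the 3′ side, sites 2 to 10 had 512 and 282 copies and a log2 ratio of -0.82 (-1.04 to -0.61), and on the 5′ side sites 21 to 30 had 1076 and 547 copies and a log2 ratio of -0.94 (-1.09 to -0.79). The interval of the middle group thus lay apart from those of its neighbours. Over all genes, the median log2 ratio of sites with at least 20 copies moved little with rank, from -0.04 at site 1 to -0.11 at sites 11 to 20 and -0.22 from site 21 on. The last of these groups held only 62 sites, those of Mapt and Map1b included.

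**Figure D2:**
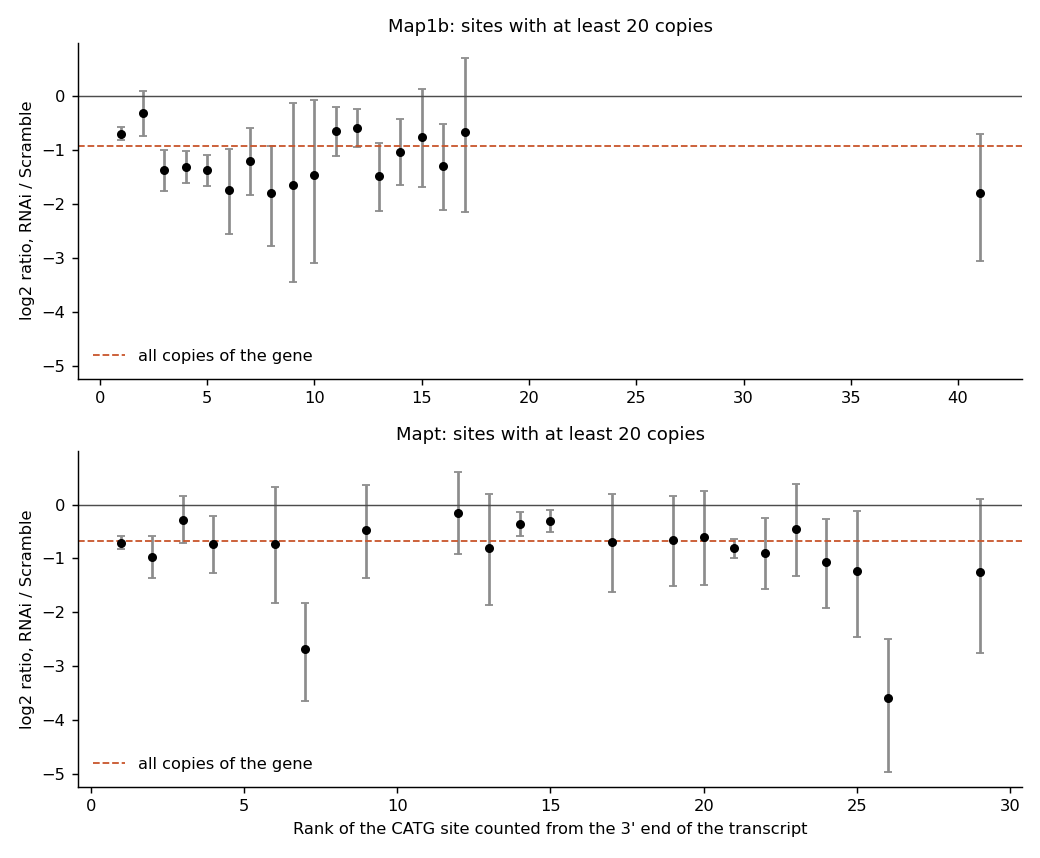
Log2 ratio of copies scaled to clean tags (PIWIL1 RNAi over Scramble) at each site of Map1b and Mapt with at least 20 copies, against the rank of the site from the 3′ end, with exact 95% intervals for counting error; the dashed line is the ratio over all copies of the gene. All 18 and 21 sites lie below 0, beside 55.7% of such sites over all genes. Mapt sites 7 and 26 lie at -2.67 and -3.60, far below the dashed line.

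Among the sites of all genes with at least 50 copies, the lowest ratios were found within Mapt. Site 26 had 87 Scramble and 7 RNAi copies, a log2 ratio of -3.60 (-4.96 to -2.50). Site 7 had 85 and 13 copies, a log2 ratio of -2.67 (-3.64 to -1.82). Each of these sites held about as many Scramble copies as site 4, which had 85 and 50 copies and a log2 ratio of -0.73. Of the 8950 sites of all genes with at least 50 copies, no other was as low as site 26, and apart from site 26 none was as low as site 7. Of the 15813 sites with at least 20 copies, 6 were as low as site 26 and 28 as low as site 7, the site itself included. The tags of both sites end in TG, which at site 7 is the end of a second CATG within the tag. All 6 of the sites as low as site 26 had a TG end, among 865 sites with this end. Without sites 7 and 26, an alternative added after these values were seen, the log2 ratio of Mapt was -0.63. Leaving out 1 site at a time, it ran from -0.74 without site 15 to -0.65 without site 21. Chi-square per degree of freedom over the sites was 4.93, and 167 of the 694 genes had a value at least as large. The standard deviation of the site ratios was 0.805, and 98 of the 694 genes had one at least as large.

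Map2, the dendritic protein's gene, was near the depth limit. It had 24 Scramble and 8 RNAi copies, or 7.09 and 2.42 TPM, and a log2 ratio of -1.55 (-2.91 to -0.35). Site 2 had 3 and 2 copies, site 4 had 6 and 4, and site 5 had 6 and 2. Sites 6, 9 and 10 had 3 copies each in the Scramble library and were not listed in the RNAi library. No site had a ratio whose interval left out 0. Leaving out 1 site at a time, the log2 ratio ran from -2.13 without site 4 to -1.36 without site 6, and with 1 copy given back to every tag missing from a library it was -1.09.

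No copy of Map2 came from site 1. Taking 3 copies of the total as the limit that a count of 0 allows, 0 of 24 Scramble copies allow a share of up to 12.5% and 0 of 8 RNAi copies up to 37.5%. The exact intervals end at 14.2% and 36.9%. Among 934 genes with at least 5 listed sites and a number of copies within 3-fold of that of Map2, the median share at site 1 was 33.3%, and 115 genes (12.3%) had no copy there. Map2 has long and short splice forms, and which of them carried these tags was not analysed here.

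The share of copies at site 1 describes each library on its own. In Map1b it was 42.0% (40.4 to 43.7) in the Scramble library and 49.0% (46.7 to 51.4) in the RNAi library, and the intervals do not overlap. In Mapt it was 38.0% (36.5 to 39.5) and 37.5% (35.6 to 39.4), a difference within counting error. With copies corrected for the tag end, as described further on, the shares were 38.1% and 53.4% for Map1b and 40.2% and 35.7% for Mapt. Genes with at least 5 listed sites and copies within 3-fold of these genes had higher shares in the middle of their range. The median was 68.3% for the 245 genes set beside Map1b, 64 of which had a lower share than Map1b, and 68.2% for the 177 genes set beside Mapt, 48 of which had a lower share than Mapt. Map1b and Mapt were also read from more sites, since these genes had a median of 9 and 10 listed sites. None of the 245 had as many as Map1b, and 4 of the 177 had at least as many as Mapt. Each set leaves out only the gene itself. Mapt is thus among the 245 and among the 64 with a lower share. Map1b, with 38 listed sites, is among the 177 and among the 4.

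**Figure D3:**
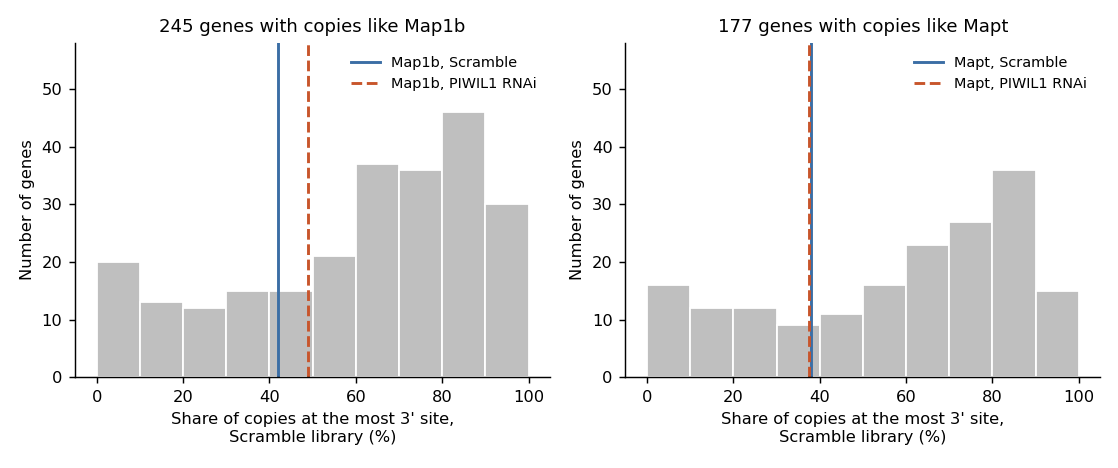
Share of copies at the site nearest the 3′ end in the Scramble library, in percent, for 245 genes with copies within 3-fold of Map1b and 177 within 3-fold of Mapt, as counts of genes in steps of 10 percentage points. The lines mark Map1b at 42.0% and 49.0% and Mapt at 38.0% and 37.5% in the Scramble and RNAi libraries, to the left of the peak of each distribution.

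The makeup by position differed between libraries in both genes but at different places. In Map1b, sites 2 to 10 held 37.6% (36.0 to 39.3) of the Scramble copies and 29.9% (27.8 to 32.1) of the RNAi copies. Sites 11 to 20 of Map1b held 16.5% and 17.5%, with overlapping intervals. In Mapt, sites 11 to 20 held 23.6% (22.3 to 24.9) and 29.6% (27.8 to 31.4), and sites 21 to 30 held 1076 of 4138 copies (24.7 to 27.4%) and 547 of 2514 copies (20.2 to 23.4%). The order of the sites by copies was largely kept, since the rank correlation of copies between libraries was 0.92 over the 38 sites of Map1b, 0.89 over the 28 of Mapt and 0.78 over the 6 of Map2. Sites of a gene share their library, transcript and depth, so these coefficients describe the profiles only.

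**Figure D4:**
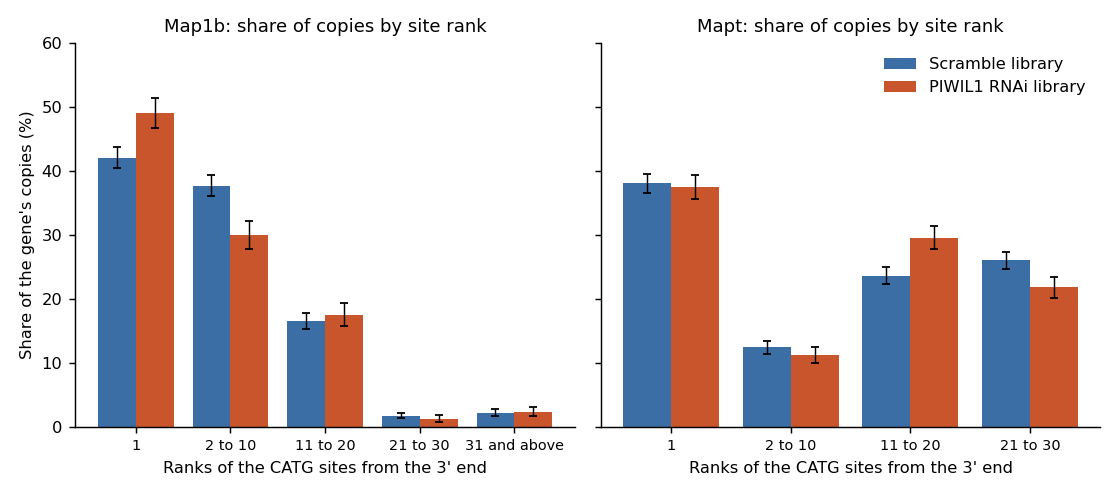
Share of each gene's copies by the rank of the CATG site from the 3′ end, in percent, for Map1b and Mapt in the Scramble and RNAi libraries, with exact 95% intervals. The Map1b bars differ at site 1 (42.0% and 49.0%) and at sites 2 to 10 (37.6% and 29.9%), and the Mapt bars differ at sites 11 to 20 (23.6% and 29.6%) and, in the other direction, at sites 21 to 30.

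The bases at the end of a tag moved with these site differences. Over all tags with at least 20 copies, the median log2 ratio was -0.67 for tags ending in TG (866 tags, quartiles -1.30 and -0.02), -0.67 for GT and -0.55 for GG, and 0.15 for GC, 0.16 for CA and 0.36 where the tag ended in 6 A. The rank correlation between the log2 ratio of a site and the median of its tag end was 0.61 over the 18 sites of Map1b and 0.56 over the 21 sites of Mapt. The correlation with rank was -0.04 and -0.37, and that with the number of G and C in the tag -0.16 and 0.08. In Mapt the 6 sites whose leading tag ends in TG, GT or GG had 277 and 78 copies and a log2 ratio of -1.79 (-2.17 to -1.43), and the other 15 sites had 3826 and 2410 copies and a log2 ratio of -0.63 (-0.70 to -0.56). Most of the 277 Scramble copies were those of site 7 (85 and 13 copies) and site 26 (87 and 7). The rest of these 6, sites 6, 13, 19 and 25, had log2 ratios of -0.72, -0.80, -0.66 and -1.23. In Map1b the order of the pooled copies was the other way round. Its 7 sites with such ends had 1735 and 968 copies and a log2 ratio of -0.81 (-0.92 to -0.69), and the other 11 had 1535 and 721 copies and a log2 ratio of -1.05 (-1.18 to -0.93). Most of the copies of the first set were those of site 1. By single sites the order was the same in both genes. The median log2 ratio of sites with such ends and of the other sites was -1.48 and -1.02 in Map1b, and -1.01 and -0.70 in Mapt.

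**Figure D5:**
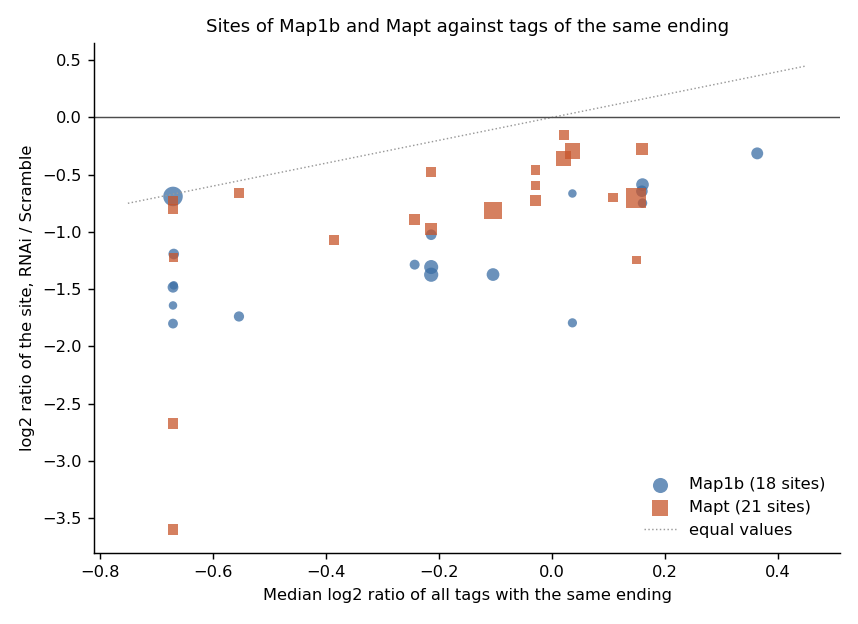
Log2 ratio of each site of Map1b and Mapt with at least 20 copies against the median log2 ratio of all tags of the series with the same end; a larger symbol stands for more copies and the dotted line for equal values. All sites lie below the dotted line, Mapt sites 7 and 26 lowest at -2.67 and -3.60, and Map1b site 1 lies close to it at -0.69 against -0.67.

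With copies corrected for the median of their tag end, taken from other genes, all 18 sites of Map1b and all 21 of Mapt were still lower in the RNAi library. As before the correction, nothing is read from these counts. The corrected log2 ratios ran from -1.91 to -0.16 in Map1b and from -3.03 to -0.15 in Mapt, and their standard deviation over sites was 0.361 and 0.681, compared with 0.464 and 0.805 before. For the whole genes the corrected values were -0.64 for Map1b, -0.76 for Mapt and -1.66 for Map2. Site 1 of Map1b, whose tag ends in TG, moved to -0.16, and the other sites together had a corrected log2 ratio of -1.05. The distance between site 1 and the rest of Map1b was then 0.89. In Mapt, whose site 1 ends in GC, the corrected log2 ratio was -0.94 at site 1 and -0.66 for the rest, a difference of -0.28 that lies outside the interval of the uncorrected one. Among 43 genes whose site 1 has a TG end, the uncorrected difference between site 1 and the rest had a median of -0.73 with quartiles of -1.09 and 0.04, and 7 genes had a difference at least as high as the 0.41 of Map1b. Site 7 of Mapt stayed at -2.10 and site 26 at -3.03 after the correction.

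Nearly all copies of a site belonged to its leading tag. Map1b had 10 further tags at sites of a leading tag and Mapt had 11, and each of these 21 differed from the leading tag by a single substitution. They held 0.914% of the Scramble and 1.93% of the RNAi copies of Map1b, and 0.556% and 0.676% of those of Mapt. The most copied was the T20G tag at site 1 of Map1b, with 18 and 20 copies beside 1400 and 833 of the leading tag. With the leading tag of each site alone, the log2 ratio was -0.93 for Map1b and -0.68 for Mapt.

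The genes whose ratio was nearest to that of each member, among genes with copies within 3-fold, were taken over these 2 libraries by the size of the difference in log2 ratio. For Map1b they were Selenow (-0.90), a selenoprotein, Uqcrb (-0.89), a subunit of the respiratory chain, and Rpl32 (-0.96), a ribosomal protein, of 384 candidates. For Mapt they were Actg1 (-0.68), a cytoplasmic actin, Eif5a (-0.69), a translation factor, and Fscn1 (-0.66), an actin-bundling protein, of 287 candidates. For Map2 they were Clpx, Slc11a2 and Gk, each at -1.55, of 3414.

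Other genes of the microtubule pathway were read for comparison from lists of 52 genes, of which 46 were listed under 47 identifiers. Of these, 6 were called lower and 2 higher, beside 5.97% lower and 2.96% higher over all genes, and the median log2 ratio was 0.03, against -0.085 over all genes. Of the other structural proteins 12 of 15 were listed, and 3 of them were lower. Map4, a microtubule-associated protein of many tissues, fell from 589 to 360 copies (log2 ratio -0.67, FDR 4.33e-10 by Fisher's exact test), and its corrected log2 ratio was -0.42. Dclk1, a kinase of the doublecortin family, was listed under 2 identifiers. Under NM_021584 it fell from 330 to 188 copies (-0.78, FDR 1.96e-07 by Fisher's exact test) and under NM_053343 it had 1226 and 1218 copies (0.03). Map9, a protein of the mitotic spindle, had 8 Scramble copies and no listed tag in the RNAi library (Fisher's exact test, FDR 0.0480). Dcx, doublecortin, had 1337 and 1365 copies (0.07, -0.04 to 0.18).

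None of the 11 tubulins listed was called. The neuronal form Tubb3 had 1538 and 1068 copies and a log2 ratio of -0.49 (-0.60 to -0.38), short of the threshold of 0.58. Of 20 kinases, phosphatases and related enzymes acting on these proteins 18 were listed. Mark1, a kinase that phosphorylates the microtubule-binding repeats, fell from 126 to 70 copies (-0.81, FDR 0.00277 by Fisher's exact test), and its corrected log2 ratio was -0.43. Ppp2ca, the catalytic subunit of a major Tau phosphatase, rose from 364 to 821 copies (1.21, FDR 4.54e-43 by Fisher's exact test), and its corrected log2 ratio was 1.12. Of 6 RNA-binding proteins known to bind mRNAs of this family 5 were listed. Fmr1, which binds Map1b mRNA and represses its translation, fell from 68 to 36 copies (-0.88, FDR 0.0290 by Fisher's exact test), and Elavl3, a neuronal Hu protein, from 125 to 75 (-0.70, FDR 0.0120 by Fisher's exact test). Fxr2, a relative of Fmr1, rose from 315 to 472 copies (0.62, FDR 1.82e-08 by Fisher's exact test), and its corrected log2 ratio was 0.48, below the threshold. With TMM factors 5 genes of these lists were lower and 3 higher. The calls rest on counting error alone, and with an assumed coefficient of variation of 0.1 between cultures 1 gene of these lists, Ppp2ca, was still called by edgeR's exact test.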

How the data were processed

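The mRNA of 2 libraries of rat cortical neurons was read as 21-base tags. For each tag the authors deposited its copy count, its TPM and the rank of its CATG site from the 3′ end, and for each gene the count, which is the sum of its tags. The TPM deposited by the authors is the tag count scaled to the clean tags of the library, without gene length. The submitters' processing notes name the genome build rn4. The tag filter, the matching program and its settings are not given in the sources used here. Tags seen once are absent from the tables.

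The genes, lists and rules were chosen with earlier results of these data known. Symbols came from a table of rat RefSeq genes, and 9331 of 9894 genes (94.3%) had one. Gene positions are not given, because that table is of another build. Copies were summed per gene and site. Log2 ratios were taken from counts scaled to the clean tags behind the TPM. Sites with at least 20 copies over both libraries are described singly, as are all listed sites of Map2. Background calls used a two-sided Fisher's exact test on each gene's copies against all other copies on genes, with Benjamini-Hochberg adjustment over 9894 genes.

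For the tag-end correction, tags with a terminal run of at least 3 A were grouped by run length (from 13 A on as a single class) and the others by the last 2 bases. Class medians of the log2 ratio, taken against all tags with 0.5 copies added, were estimated with the genes split into 5 parts and subtracted from the part left aside. Genes of like ratio were the 3 nearest among those with copies within 3-fold. List genes were named where called, with Dcx, Tubb3 and Fmr1. Other scalings, thresholds, site minimums, left-out sites and an edgeR test assuming variation between cultures were tried as alternatives, and those without sites 7 and 26 or without TG, GT and GG ends were chosen after seeing the data. The scripts were tested on simulated data. The tools were R 4.3.3 (DESeq2 1.42.0, edgeR 4.0.16) and Python 3.11.15 (Matplotlib 3.10.9, SciPy 1.17.1, pandas 2.3.3, NumPy 2.4.6).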

Additional observations from a re-analysis of the deposited data

How the results depend on the processing

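No paired analysis was possible because each condition had 1 library. For the same reason no replicate could be left out, and variation between cultures is not part of any interval. The log2 ratio of Map1b, -0.91 as reported, was -0.82 with edgeR's TMM factors, -0.83 with DESeq2's size factors, -0.64 with copies corrected for the tag end, -1.10 without site 1 (also the most copied site), -0.69 from site 1 alone, -1.30 as the median of its sites and -1.03 without sites whose leading tag ends in TG, GT or GG. That of Mapt, -0.68 as reported, was -0.59 with TMM, -0.60 with size factors and -0.76 with the correction. Map2 stayed within its interval, from -2.13 without its most copied site to -1.09 with 1 copy put back per missing tag. With the correction the share at site 1 was 38.1% and 53.4% for Map1b in the Scramble and PIWIL1 RNAi libraries, and 40.2% and 35.7% for Mapt. All alternatives kept each log2 ratio below 0. The cause of the differences was not tested.

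The numbers of genes called lower, called higher and called in the microtubule lists (591, 293 and 8 as reported) were 257, 163 and 4 at an FDR of 0.001, 262, 146 and 2 at a log2 threshold of 1, and 374, 185 and 5 with the correction. Under edgeR's exact test they were 170, 114 and 1 with an assumed coefficient of variation of 0.1, 2, 15 and 0 with 0.2, and 0, 0 and 0 with 0.4. At 0.1 Map1b had an adjusted p of 0.00257 in that test, Mapt 0.0545 and Map2 0.179, and at 0.2 and 0.4 none of the 3 genes passed. At an unadjusted p of 0.05 or less, the last setting gave 70 lower and 44 higher genes, 1 of them in the lists. For 0.2 the lists then held 2 such genes. Site 1, median and site-count alternatives were not run for Map2, which had no tag at site 1 and no site of 20 copies. Depth limits Map2 and all sites under 20 copies.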
